A study of Mus musculus with 8 samples.

Results

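A panel of 33 genes that mark neurons, astrocytes, the oligodendrocyte lineage and blood vessels was examined in the open chromatin of mouse hippocampal microglia. The panel is a list of gene names, with no measured value in its rule, for products that identify the cells around microglia. The panel was nevertheless chosen with earlier results of these data known. It holds 11 neuron, 7 astrocyte, 8 oligodendrocyte lineage and 7 vascular markers among 21887 annotated protein-coding genes. All 33 were found in the gene table. The question was which of these non-microglial genes had peaks, where the peaks lay, and whether they differed between FGR and Ctrl animals.

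ATAC-seq uses a transposase to cut and tag accessible DNA, so that open chromatin gives local excesses of reads called peaks. There were 4 libraries labelled FGR, which the study's title ties to intrauterine growth restriction, and 4 labelled Ctrl. All 8 came from hippocampal microglia at 3 weeks after birth, and every animal, Ctrl included, carried the reporter genotype Tmem119-tdTomato+/-, in which a red fluorescent protein is driven from a gene active in microglia. The sources used here do not give how growth was restricted, how the cells were isolated, the sex of the mice or the number of animals behind a library, so p-values measure the spread between these libraries, which may be technical.

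Microglia are the resident macrophages of the brain and descend from progenitors of the yolk sac, apart from the neural lineages. Neurons carry signals, astrocytes clear glutamate and control water and ions, oligodendrocytes and their precursors make myelin, and endothelial cells, pericytes and smooth muscle cells form the vessel wall. Genes that define those cells are mostly silent in microglia, and a silent gene can still have open DNA in or near it, because many promoters rich in the dinucleotide CpG are accessible in most cell types and because enhancers of one gene can lie inside another.

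The peak lists held 27209, 23327, 29501 and 26246 peaks in FGR libraries 1 to 4 and 16111, 10862, 22705 and 24195 in Ctrl libraries 1 to 4. Background coverage, the lowest local read depth of a list, lay between 3.52 and 4.82 extended reads per base in FGR libraries and between 3.01 and 6.05 in Ctrl libraries. Ctrl 1 and Ctrl 2 stood apart, with median peak widths of 566 and 522 bp against 353 to 386 bp in the other 6 libraries. Their summits were also placed differently. In the 13 pairs with Ctrl 1 or Ctrl 2, shared summits lay a median of 79 to 140 bp apart, and at most 0.921% were identical. The 79 bp and the 0.921% were those of Ctrl 1 with Ctrl 2. In all other pairs the median distance was 22 to 44 bp. The part of this in the group comparisons was not tested. FGR 1 and FGR 3 placed 9.14% of shared summits at the identical base and FGR 2 and FGR 4 placed 7.57% there, against 1.76% to 2.14% in the other 13 pairs that involve neither Ctrl 1 nor Ctrl 2, so the 4 FGR libraries may hold fewer than 4 independent samples. As a check on the labelled cell type, 12 of 15 microglia genes had a peak at a gene end in at least 1 library, and Tmem119, Cx3cr1, Sall1 and Irf8 each had one in all 8.

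Few of the neural and vascular markers were open at their ends. A gene-end peak, defined as any peak reaching to within 1 kb of where a gene begins or stops, upstream or downstream, was called in at least 1 library for 10 of 33 markers (30.3%), against 57.8% of all protein-coding genes. None of the 33 had one in all 8 libraries, against 31.9% of all genes. The other 23 (69.7%) had none in any library, against 42.2% of all genes. By cell type, 5 of 11 neuron markers (Map2, Tubb3, Neurod6, Prox1 and Bsn), 2 of 7 astrocyte markers (Aldh1l1 and Slc1a2), 2 of 8 oligodendrocyte lineage markers (Myrf and Mbp) and 1 of 7 vascular markers (Cdh5) had a gene-end peak in some library. Per library, 4, 3, 3 and 4 markers had one in FGR libraries 1 to 4 and 3, 2, 4 and 2 in Ctrl libraries 1 to 4, a mean of 3.5 ± 0.577 in FGR and 2.75 ± 0.957 in Ctrl (SD, n = 4 each). The groups overlapped. None of the gene-end peaks of the markers also overlapped the end of another coding gene.

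**Figure D1:**
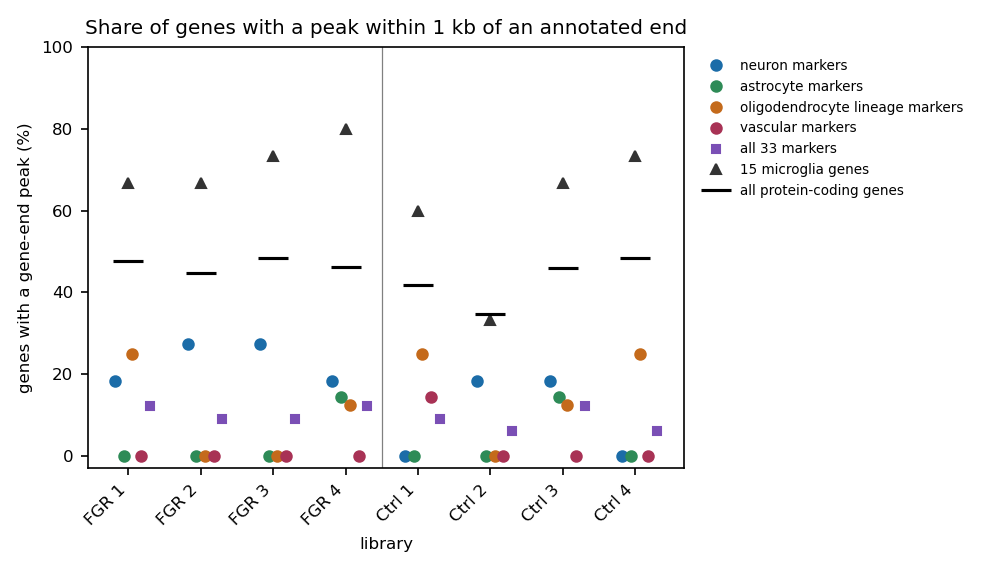
Percent of genes with a gene-end peak (vertical axis) in each library (horizontal axis), for the 4 marker types, all 33 markers, 15 microglia genes and all protein-coding genes, shown side by side within a library. All 33 markers together stay between 6.06% and 12.1%, below the 34.8% to 48.5% of all genes in every library.

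The gene-end peaks of the markers were also low in reads. All 26 of them had between 13 and 40 reads at the summit, with a median of 22, and lay at a median percentile of 28.3 of their own list by −log10 q. The 93 gene-end peaks of the microglia genes had between 23 and 90 reads, a median of 43, and a median percentile of 64.2. The median fold over local background was nearer, 3.42 for the markers and 3.71 for the microglia genes, with local backgrounds of 3.08 to 11.3 and 6.38 to 21.6 reads. The strengths are the authors' own values for each peak and are ranked only within a list. In a bulk library, a few cells of another type with an open gene and a slight opening in the microglia themselves cannot be told apart.

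The marker starts that carried a peak were mostly rich in CpG. RefSeq start windows, from 250 bases before to 50 bases after a start on GRCm38.p6, were matched for 23 of the 33 genes (25 windows). A peak overlapped 4 of the 25 windows in at least 1 library, those of Bsn, Map2 and both of Prox1, and overlapped none in all 8. Of all 21263 coding windows, 51.9% had a peak in some library and 28.7% in all 8. The 5 windows printed first below cover these 4 and the start of Slc1a3, an astrocyte glutamate transporter whose locus has many peaks but none at its start. Gfap, the intermediate filament gene of astrocytes, is added as a CpG-poor window with no peak at its start, although its locus held 12 peaks over the 8 libraries, 8 of them at ends of other genes. Capitals mark CpG, and each window is read 5′ to 3′ on the strand of its gene.
Bsn, chr9:108190334-108190633, minus strand: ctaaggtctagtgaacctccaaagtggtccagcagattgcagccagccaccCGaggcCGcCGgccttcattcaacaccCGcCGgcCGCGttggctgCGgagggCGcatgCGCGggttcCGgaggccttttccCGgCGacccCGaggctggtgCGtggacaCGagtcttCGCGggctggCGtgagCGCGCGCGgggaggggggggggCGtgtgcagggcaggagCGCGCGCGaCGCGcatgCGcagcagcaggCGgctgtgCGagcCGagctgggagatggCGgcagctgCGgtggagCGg
Map2, chr1:66175079-66175378, plus strand: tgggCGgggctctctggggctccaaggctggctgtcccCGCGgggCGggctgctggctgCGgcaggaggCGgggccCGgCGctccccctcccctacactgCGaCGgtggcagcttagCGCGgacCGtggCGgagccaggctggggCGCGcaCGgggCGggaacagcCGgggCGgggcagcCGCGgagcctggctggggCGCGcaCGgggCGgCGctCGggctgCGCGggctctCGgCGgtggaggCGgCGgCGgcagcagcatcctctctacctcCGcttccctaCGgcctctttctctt
Prox1 outer start, chr1:190170778-190171077, minus strand: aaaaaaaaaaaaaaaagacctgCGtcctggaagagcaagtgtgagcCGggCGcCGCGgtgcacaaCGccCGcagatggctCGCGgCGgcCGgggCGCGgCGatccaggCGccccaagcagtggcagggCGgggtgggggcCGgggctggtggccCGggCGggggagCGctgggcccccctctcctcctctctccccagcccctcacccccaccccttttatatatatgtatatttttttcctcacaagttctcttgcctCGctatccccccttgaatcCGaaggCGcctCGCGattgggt
Prox1 inner start, chr1:190169466-190169765, minus strand: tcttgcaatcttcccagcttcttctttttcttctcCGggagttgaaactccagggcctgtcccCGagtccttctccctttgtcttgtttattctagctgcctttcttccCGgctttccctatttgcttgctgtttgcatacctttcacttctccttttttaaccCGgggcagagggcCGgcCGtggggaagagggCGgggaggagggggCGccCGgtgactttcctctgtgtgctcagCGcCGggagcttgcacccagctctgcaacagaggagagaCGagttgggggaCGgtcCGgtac
Slc1a3, chr15:8710758-8711057, minus strand: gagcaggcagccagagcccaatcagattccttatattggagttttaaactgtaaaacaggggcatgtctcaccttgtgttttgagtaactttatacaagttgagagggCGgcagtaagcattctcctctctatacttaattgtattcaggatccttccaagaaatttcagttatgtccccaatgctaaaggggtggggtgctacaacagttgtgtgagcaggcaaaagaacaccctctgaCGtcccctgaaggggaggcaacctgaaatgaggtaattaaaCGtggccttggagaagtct
Gfap, chr11:102897151-102897450, minus strand: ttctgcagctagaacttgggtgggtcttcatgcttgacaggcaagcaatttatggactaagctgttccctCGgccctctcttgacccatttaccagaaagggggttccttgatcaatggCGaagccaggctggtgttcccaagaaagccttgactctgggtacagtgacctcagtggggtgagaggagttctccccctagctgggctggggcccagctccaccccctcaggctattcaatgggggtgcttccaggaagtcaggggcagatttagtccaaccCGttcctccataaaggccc

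The Bsn window held 38 CpG, that of Map2 37 and those of Prox1 25 at the outer and 14 at the inner start, while the windows of Slc1a3 and Gfap held 3 each. The ratio of observed to expected CpG was 0.997 in Bsn, 0.827 in Map2, 0.807 and 0.568 in Prox1, 0.197 in Slc1a3 and 0.129 in Gfap. Over the markers the median ratio was 0.415, against 0.567 over all coding windows. The median was 0.817 in the 4 marker windows with a peak and 0.332 in the 21 without. Among all coding windows a ratio of at least 0.8 went with a peak in some library in 90.1% of 5984 windows and in all 8 libraries in 60.2%. The 5 marker windows in that range were those of Bsn, Map2, Prox1 (outer), Gad1 and Olig2, of which 3 had a peak in some library and 0 in all 8. Gad1, which makes the transmitter GABA, and Olig2, a transcription factor of the oligodendrocyte lineage, had none. Below a ratio of 0.4, 0 of 12 marker windows and 11.7% of all coding windows had a peak in some library.

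Among neuron markers, Bsn had the largest difference between the groups in the number of libraries with a gene-end peak. It encodes bassoon, a large scaffold protein of the presynaptic active zone, and runs from chr9:108096022 to 108190419 on the minus strand. A peak lay within 1 kb of its 5′ end in all 4 FGR libraries and in 0 of 4 Ctrl libraries. Of the 4 FGR libraries, only FGR 2 and FGR 3 had a peak that reached the start window printed above. The summit pileup was 21, 20, 26 and 22 reads in FGR libraries 1 to 4, FGR 2 having a further peak of 19 reads there. The summits lay between 283 and 732 bp inside the gene, and the peaks ranked between the 20.4 and 55.4 percentiles of their lists. All were thus in the lower part or the middle of the lists. No peak was listed there in any Ctrl library. At least 10% of all listed peaks had at most 21, 16, 18 and 21 reads in Ctrl libraries 1 to 4. The median listed peak had 32, 24, 30 and 34 reads there. The 20 to 26 reads of FGR thus lay below the median of Ctrl 1, 3 and 4 and around that of Ctrl 2. Background coverage differed between libraries, and the part of a lower limit of the lists in the pattern was not tested. Fisher's exact test, two-sided, gave p = 0.0286, the smallest that 4 libraries against 4 allow, and an adjusted p of 1 over the 5685 genes with a gene-end peak in 1 to 7 libraries. With 4 libraries against 4 no single gene could pass this adjustment on its own, so the test cannot decide on Bsn. The same 4 to 0 pattern occurred in 37 of 21887 genes (0.169%), and Bsn was the only marker with it. The reverse pattern, 0 FGR and 4 Ctrl libraries, occurred in 0.0228% of genes and in none of the markers. The Bsn pattern was lost with a window of 500 bp, since the FGR 4 peak lies further inside, with one of 2 kb, which takes in the end of Apeh, with a −log10 q of at least 5, and when each list was cut to its strongest 10862 peaks, where no library kept a Bsn gene-end peak.

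Map2 and Prox1 had start peaks in both groups. Map2 encodes a microtubule-associated protein of dendrites (chr1:66175202-66442583, plus strand), and its start carried a peak of 19 reads in FGR 2 and 18 in FGR 4, against 13 in Ctrl 2 and 17 in Ctrl 3. The summits lay from 10 bp before to 180 bp after the start. Prox1 encodes a homeobox transcription factor of dentate granule neurons (chr1:190118035-190170827, minus strand), and its outer start carried a peak of 23 reads in FGR 1 and 30 in FGR 3, against 23 in Ctrl 2 and 28 in Ctrl 3. The outer Prox1 start and the Map2 start were thus called in 2 libraries of each group. A region at and just inside the inner start of Prox1, chr1:190168840-190169608, was listed with 20, 22 and 23 reads in FGR 1 to 3 and not in FGR 4, and with 24, 23, 25 and 23 reads in Ctrl 1 to 4. Not all of these peaks reached the inner start window printed above, which was overlapped in 1 FGR and 3 Ctrl libraries.

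**Figure D2:**
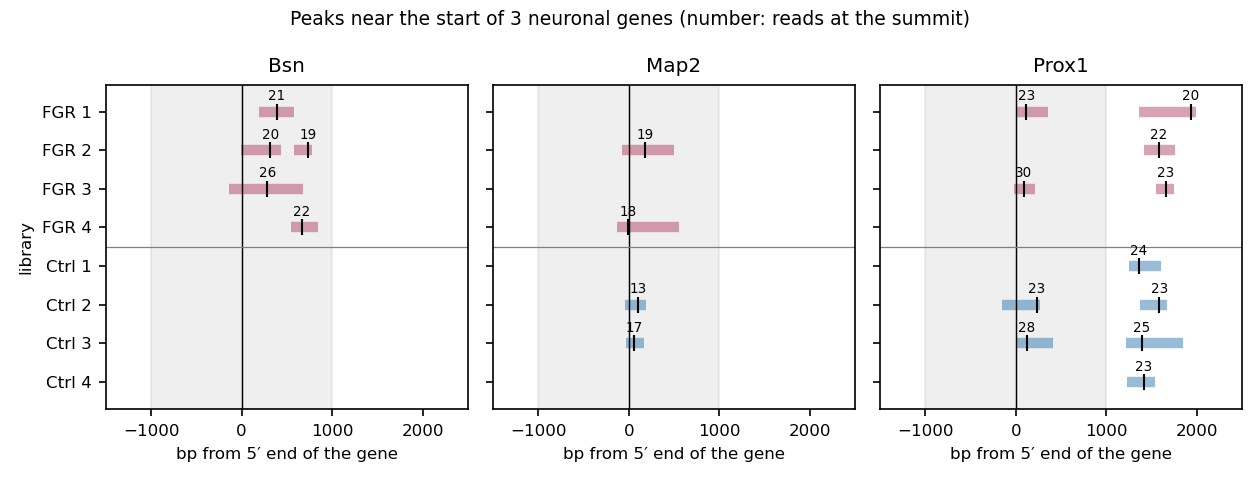
Peaks (bars) and their summits (ticks, with the reads at the summit above) around the annotated 5′ end (horizontal axis, bp) of Bsn, Map2 and Prox1, for FGR libraries (red, upper rows) and Ctrl libraries (blue, lower rows), with the gene-end window of 1 kb on either side in grey. Bars within 1 kb of the Bsn start appear in the 4 FGR rows alone, while Map2 and Prox1 have bars in 2 rows of each group inside the window.

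Tubb3 and Neurod6 had a gene-end peak in 1 library each. Tubb3, a tubulin gene of neurons, had one of 20 reads in FGR 2, 414 bp inside the gene. Neurod6, a transcription factor gene of excitatory neurons, had one of 16 reads beyond its 3′ end in FGR 3. The other 6 neuron markers had none in any library. They are Rbfox3, which encodes the nuclear protein NeuN, the vesicle release genes Snap25 and Syt1, the GABA synthesis genes Gad1 and Gad2, and Slc17a7, which encodes a vesicular glutamate transporter. Over the 11 neuron markers, 2, 3, 3 and 2 genes had a gene-end peak in FGR libraries 1 to 4 and 0, 2, 2 and 0 in Ctrl libraries 1 to 4, a mean of 2.5 ± 0.577 in FGR and 1 ± 1.15 in Ctrl (SD, n = 4 each). The groups met at 2 genes. With all lists cut to the length of the shortest, FGR averaged 0 and Ctrl 0.5, so that the sign of the difference turned.

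Counts over whole loci include peaks inside the markers, in their flanks and at the ends of neighbouring genes. A locus was taken as the gene with 20 kb on each side. Of the 33 marker loci, 6 had no peak in any library (Gad2, Aqp4, Sox9, Olig2, Tek and Rgs5), or 18.2% against 21.4% of all coding loci. A peak in all 8 libraries was found in 9 marker loci (27.3%), against 51.6% of all loci. The median density was 0.905 peaks per 100 kb and library in marker loci, 1.76 over all coding loci and 6.34 over the 15 microglia genes. The densest marker loci were those of Bsn, Slc1a3, Myrf and Slc17a7, at the 81.1, 78.3, 77.9 and 77.5 percentiles of all loci. In Slc17a7, 14 of the 17 peaks lay at ends of other genes.

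**Figure D3:**
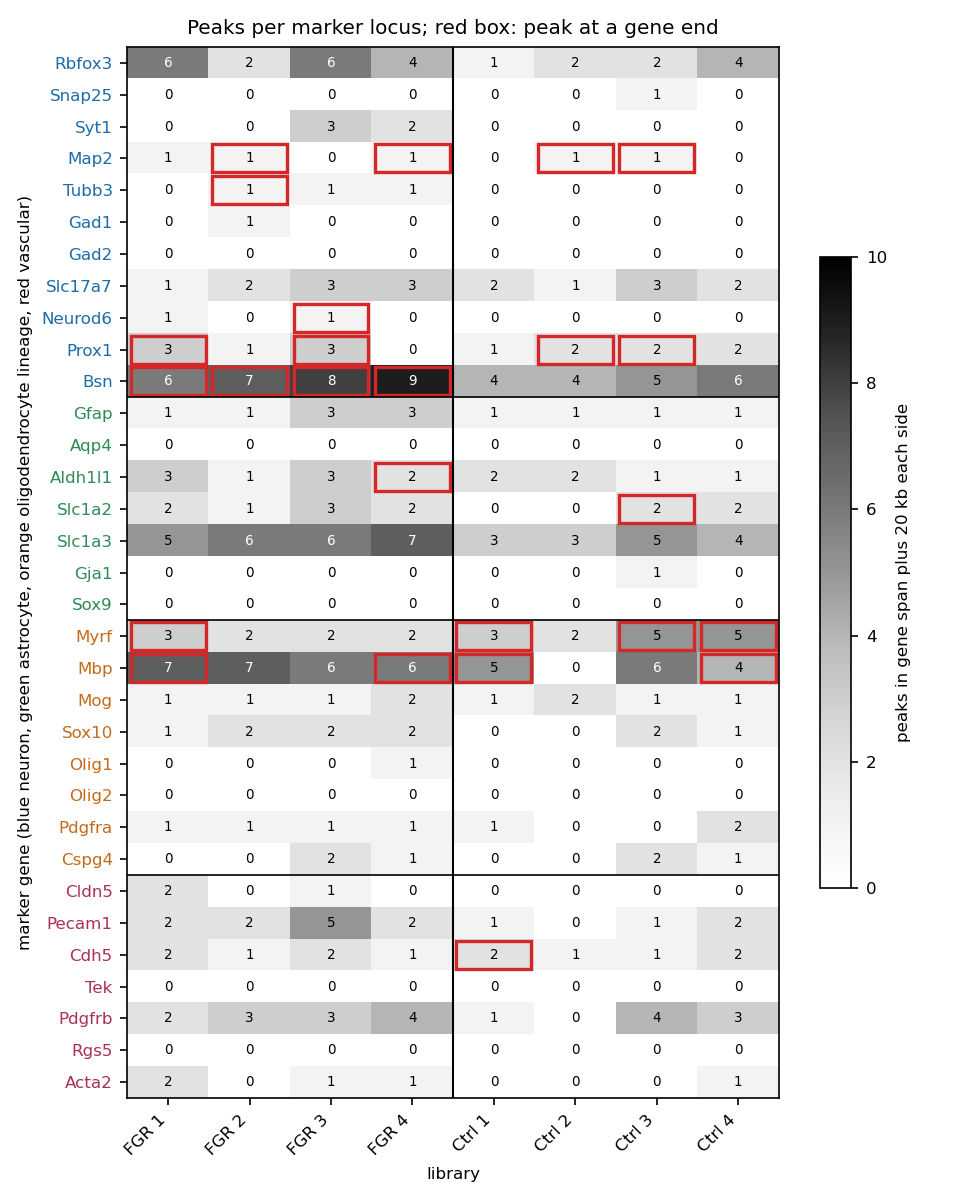
Number of peaks in each marker locus (rows, coloured by cell type) in each library (columns, FGR left of Ctrl), from white for 0 to black for 10, with red boxes where a gene end carries a peak. Bsn, Slc1a3, Mbp and Rbfox3 hold the most peaks, and 6 rows are empty throughout.

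Neuron loci held 18, 15, 25 and 20 peaks in FGR libraries 1 to 4 and 8, 10, 14 and 14 in Ctrl libraries 1 to 4, with no overlap between the groups. The FGR lists were also longer than the Ctrl lists, save that FGR 2 was shorter than Ctrl 4. Divided by list length, these were 6.62, 6.43, 8.47 and 7.62 per 10000 peaks in FGR and 4.97, 9.21, 6.17 and 5.79 in Ctrl, and on that scale the groups overlapped, with the highest and the lowest value both in Ctrl. The Bsn locus led with 6, 7, 8 and 9 peaks in FGR libraries 1 to 4 and 4, 4, 5 and 6 in Ctrl libraries 1 to 4. Of these, regions in all 8 libraries lay at the ends of the neighbouring genes Apeh and Mst1 with Rnf123 and in the flank at chr9:108200963-108201745. That flank region had 45, 48, 58 and 56 reads in FGR libraries and 47, 25, 58 and 53 in Ctrl libraries. In the FGR libraries these were well above the reads at the 5′ end of Bsn, where no Ctrl library had a listed peak. Rbfox3 had 6, 2, 6 and 4 peaks in FGR libraries and 1, 2, 2 and 4 in Ctrl libraries. The Rbfox3 locus had a region in all 8 libraries at the end of the neighbouring gene Engase, and a region inside Rbfox3 at chr11:118502197-118502642 was called in 4 FGR libraries (34, 32, 41 and 33 reads) and in Ctrl 3 (21 reads). Syt1 had 3 peaks in FGR 3 and 2 in FGR 4, Tubb3 1 each in FGR 2, 3 and 4, Neurod6 1 each in FGR 1 and 3, and Gad1 1 in FGR 2, while none of these 4 loci had a peak in a Ctrl library. Snap25 had 1 peak, in Ctrl 3. Over all coding loci, mean counts not divided by list length were higher in FGR at 56.6% and lower at 9.62%. The share of all loci with peaks in FGR libraries alone is not given here, so these sparse peaks are not read as particular to neuron genes.

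Astrocyte markers had few peaks at their ends and more inside the genes, chiefly in Slc1a3 and Slc1a2. Aldh1l1, a folate enzyme gene used to label astrocytes, had a gene-end peak of 22 reads at −430 bp from its start in FGR 4, and Slc1a2, the main glutamate transporter gene of astrocytes, had one of 17 reads 900 bp inside the gene in Ctrl 3. Gfap, the water channel gene Aqp4, the gap junction gene Gja1, the transcription factor gene Sox9 and Slc1a3 had none. Slc1a3 (chr15:8634124-8710807, minus strand) nevertheless held 5, 6, 6 and 7 peaks in FGR libraries 1 to 4 and 3, 3, 5 and 4 in Ctrl libraries 1 to 4. The groups met at 5 peaks. A region inside Slc1a3 at chr15:8642203-8642963 was called in all 8 libraries, with 46, 43, 45 and 52 reads in FGR and 27, 21, 34 and 45 in Ctrl. Another at chr15:8680968-8681674 had 38, 26, 39 and 42 reads in FGR and 34, 19, 34 and 37 in Ctrl. Their median percentiles of 75.5 and 79.5 place both in the upper part of most lists. The first, however, lay at the 29.7 percentile in Ctrl 1 and 23.0 in Ctrl 2, and the second at 44.3 in Ctrl 2. In Slc1a2, a region at chr2:102745223-102745749 was called in 4 FGR libraries (22, 23, 30 and 32 reads) and in Ctrl 3 and Ctrl 4 (26 and 30 reads). The peak of the Gfap locus that all 8 libraries shared lay at the ends of Ccdc103 and Eftud2, and that of the Aldh1l1 locus at the end of Slc41a3. Astrocyte loci together held 11, 9, 15 and 14 peaks in FGR and 6, 6, 10 and 8 in Ctrl, or 4.04, 3.86, 5.08 and 5.33 per 10000 in FGR and 3.72, 5.52, 4.40 and 3.31 in Ctrl, where the groups overlapped.

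In the oligodendrocyte lineage, the mean number of peaks was lower in FGR at Myrf and higher at Mbp, in counts and per 10000 peaks. The Mbp groups overlapped on both scales, and the Myrf groups were apart only per 10000 peaks. Myrf encodes the transcription factor that switches on the myelin genes (chr19:10208271-10240777), and its upper-coordinate end carried a peak of 30 reads in FGR 1, against 33, 38 and 40 reads in Ctrl 1, 3 and 4. It was the only marker with a gene-end peak in at least 2 fewer FGR than Ctrl libraries, a pattern of 1.04% of all genes, and Bsn the only one with at least 2 more, a pattern of 4.94%. The Myrf locus held 3, 2, 2 and 2 peaks in FGR libraries and 3, 2, 5 and 5 in Ctrl libraries. Per 10000 peaks these were 1.10, 0.857, 0.678 and 0.762 in FGR and 1.86, 1.84, 2.202 and 2.07 in Ctrl. On that scale every FGR value lay below every Ctrl value, as in 3.22% of all loci. Of the 7 regions in the Myrf locus, 2 were called in all 8 libraries (the ends of Fen1 and Tmem258, and a flank region at chr19:10191116-10191767), 1 was the gene end, and the other 4 were each called in 1 Ctrl library and no FGR library.

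Mbp encodes myelin basic protein. Its lower-coordinate end carried a peak of 20 reads in FGR 1 and 26 in FGR 4, against 24 in Ctrl 1 and 33 in Ctrl 4. The Mbp locus held 7, 7, 6 and 6 peaks in FGR libraries and 5, 0, 6 and 4 in Ctrl libraries, so that the groups met at 6 and Ctrl 2, the shortest list, had none. A region inside Mbp was called in 4 FGR libraries (23, 29, 25 and 34 reads) and in no Ctrl library. The remaining 6 lineage markers had no gene-end peak. They are the myelin surface gene Mog, the transcription factor genes Sox10, Olig1 and Olig2, and Pdgfra and Cspg4, which encode surface proteins of oligodendrocyte precursors. A flank region of Mog at chr17:37028578-37029250 was called in all 8 libraries, with 32, 32, 31 and 45 reads in FGR and 41, 22, 37 and 34 in Ctrl. Inside Pdgfra, chr5:75156008-75156511 was called in 4 FGR libraries (25, 23, 26 and 45 reads) and in Ctrl 1 and Ctrl 4 (22 and 28 reads). Lineage loci together held 13, 13, 14 and 15 peaks in FGR and 10, 4, 16 and 14 in Ctrl, or 4.78, 5.57, 4.75 and 5.72 per 10000 in FGR and 6.21, 3.68, 7.05 and 5.79 in Ctrl. The groups overlapped on both scales.

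Among the 33 markers, the vascular ones had the fewest gene-end peaks, which did not hold for the further markers described below. The single one was a peak of 20 reads at the upper-coordinate end of Cdh5, the gene of the endothelial cadherin, in Ctrl 1. The tight junction gene Cldn5, the adhesion gene Pecam1, the angiopoietin receptor gene Tek, the pericyte genes Pdgfrb and Rgs5 and the smooth muscle actin gene Acta2 had none. Inside Cdh5, chr8:104110540-104111392 was called in all 8 libraries, with 33, 46, 48 and 56 reads in FGR and 47, 26, 50 and 44 in Ctrl, at a median percentile of 84.6. Pecam1, which is known to be expressed by blood leukocytes as well as endothelium, held 2, 2, 5 and 2 peaks in FGR and 1, 0, 1 and 2 in Ctrl. Its region at chr11:106669750-106670102 was called in 4 FGR libraries (26, 33, 33 and 37 reads) and in Ctrl 3 (31 reads). Pdgfrb held 2, 3, 3 and 4 peaks in FGR and 1, 0, 4 and 3 in Ctrl. In the flank of Acta2, chr19:34233946-34234337 had 30, 37 and 25 reads in FGR 1, 3 and 4 and was not listed in Ctrl. Vascular loci together held 10, 6, 12 and 8 peaks in FGR and 4, 1, 6 and 8 in Ctrl, or 3.68, 2.57, 4.07 and 3.05 per 10000 in FGR and 2.48, 0.921, 2.64 and 3.31 in Ctrl. The groups overlapped on both scales, and with the flank left out the difference of the means shrank to 0.0291 per 10000.

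Most peaks near these genes were not at their ends. Of the 357 peaks in marker loci over the 8 libraries, 166 (46.5%) lay inside a marker gene, 92 (25.8%) in a flank, 73 (20.4%) at the end of another coding gene and 26 (7.28%) at an end of the marker. Pooled over cell types, peaks at other genes' ends had a median percentile of 59.6 and a median of 33 reads, against 28.3 and 22 reads for the markers' own ends. That order held in neuron loci (66.6 against 26.4) and astrocyte loci (63.8 against 25.0) but not in oligodendrocyte lineage loci (30.7 against 42.1), and vascular loci had no peak at another gene's end. Peaks inside the markers had a median percentile of 37.9 and flank peaks 42.0. The share of marker-locus peaks at any gene end was 23.1%, 30.2%, 21.2% and 22.8% in FGR libraries and 39.3%, 47.6%, 30.4% and 27.3% in Ctrl libraries. Over all peaks it was 37.6%, 41.4%, 35.9% and 38.6% in FGR and 52.6%, 62.9%, 43.6% and 43.0% in Ctrl. Every library thus had a smaller share at gene ends in the marker loci than over its whole list.

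**Figure D4:**
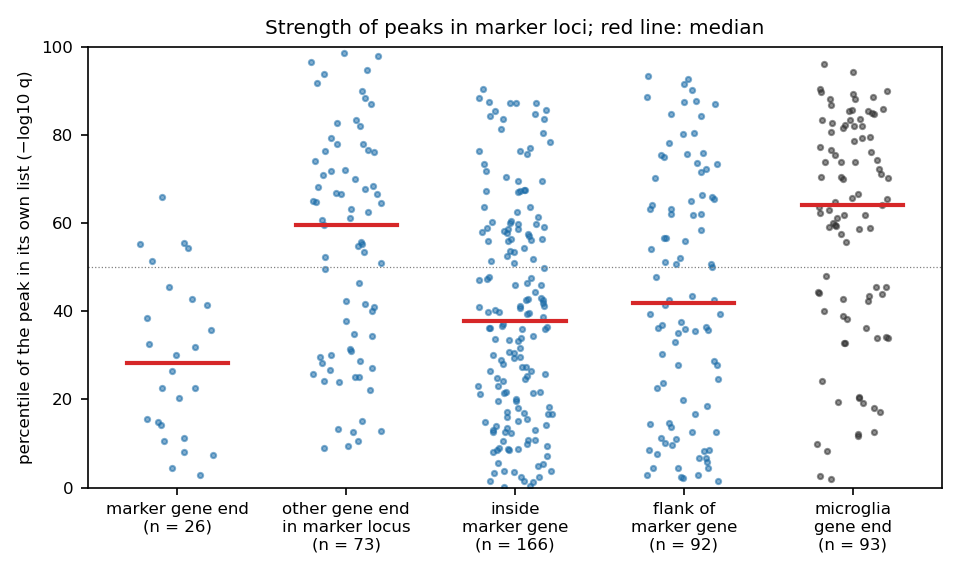
Percentile of each peak in its own list by −log10 q (vertical axis) for the 26 peaks at marker ends, 73 at ends of other genes in marker loci, 166 inside markers and 92 in flanks, pooled over 8 libraries, beside the 93 gene-end peaks of 15 microglia genes. Red lines are medians, lowest at marker ends (28.3) and highest at microglia gene ends (64.2), and points of 1 gene in several libraries are not independent.

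Merging the lists gave 128 regions in marker loci out of 52251 in all. In marker loci 70 regions (54.7%) were called in 1 library, against 45.9% of all regions, and 13 (10.2%) in all 8 libraries, against 16.9%. Of the 13, 7 lay at ends of other genes and 6 elsewhere, in Slc1a3 (2 regions), in Cdh5 and in the flanks of Bsn, Myrf and Mog. Of the 10 regions at marker ends, none was called in more than 4 libraries. More FGR than Ctrl libraries called 79 of the 128 regions (61.7%, against 58.6% of all regions) and fewer called 25 (19.5%, against 17.8%), shares close to those of all regions. The regions called in 4 FGR and 0 Ctrl libraries were 2, the one at the 5′ end of Bsn and the one inside Mbp. That pattern was found in 0.869% of all regions, and 0 marker regions had the reverse, a pattern of 0.0268%. Fisher's exact test over the 43395 regions called in 1 to 7 libraries gave an adjusted p of 1 for all of them, and 468 had an unadjusted p of 0.0286. As that is the smallest p that 4 libraries against 4 allow, no single region could pass on its own, and the test cannot decide.

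**Figure D5:**
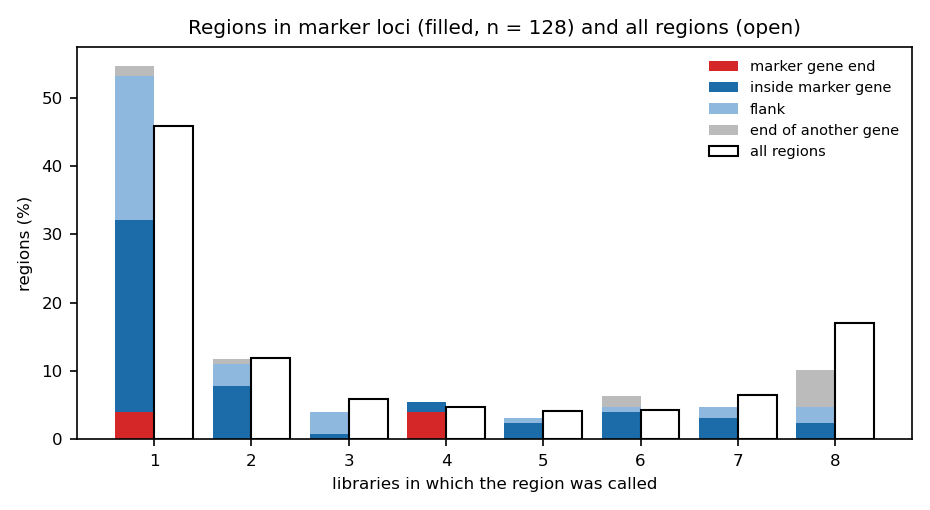
Share of regions (vertical axis, percent) by the number of libraries in which they were called (horizontal axis), for the 128 regions in marker loci (filled, stacked by position) and all 52251 regions (open). Regions in 1 library make up 54.7% of the filled and 45.9% of the open bars, and regions at marker ends appear at 1 and 4 libraries alone.

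No marker locus was called different between FGR and Ctrl when all loci were tested. With limma on log2 of peaks per locus, plus 0.5, per 10000 peaks of the list, 1 of the 8037 loci that averaged 2 peaks or more was higher in FGR at an adjusted p below 0.05 (0.0124%) and 0 were lower (0%). Without adjustment 209 (2.6%) were higher and 1256 (15.6%) lower. Of the 33 markers 7 had enough peaks to enter, and 0 of the 7 were called. Myrf came nearest, at a log2 difference of −1.16 ± 0.25 (SE, unadjusted p = 3.71e-05, limma adjusted p = 0.0994, range 0.00889 to 0.424 over the alternatives). It passed with a pseudocount of 1 (limma adjusted p = 0.0263). Without division by list length it stood at −0.57, with a limma adjusted p of 0.382. Without Ctrl 1 and Ctrl 2 it was −1.19, with a limma adjusted p of 0.423. Mbp stood at 0.63 ± 0.34 (limma adjusted p = 0.279), and its difference was 0.0043 without Ctrl 2, the library with no Mbp peak. Pdgfrb stood at 0.30 ± 0.36 and at −0.10 without Ctrl 2. Rbfox3 stood at 0.29 ± 0.29, Slc1a3 at 0.04 ± 0.23, Bsn at 0.02 ± 0.21 and Slc17a7 at −0.47 ± 0.33, with limma adjusted p between 0.378 and 0.957.

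Division by list length moved all values. The median log2 difference over all 8037 loci was −0.28 after division by list length and 0.31 without it, and that of the 7 markers was 0.04 and 0.63. Over all 33 markers, mean peak counts were higher in FGR at 20 loci, lower at 3 and equal at 10, against 56.6% higher and 9.62% lower over all coding loci. Divided by list length, 17 markers were higher, 10 lower and 6 equal, against 30.3% higher and 48.2% lower over all loci. Every FGR library above every Ctrl library was found for none of the 33 loci on either scale, against 2.23% of loci in counts and 0.937% per 10000 peaks. Every FGR library below every Ctrl library was found for none in counts (0.0183% of all loci) and for Myrf per 10000 peaks. All marker loci together held 52, 43, 66 and 57 peaks in FGR and 28, 21, 46 and 44 in Ctrl, or 19.1, 18.4, 22.4 and 21.7 per 10000 in FGR and 17.4, 19.3, 20.3 and 18.2 in Ctrl. The means per 10000 were 20.4 ± 1.93 in FGR and 18.8 ± 1.27 in Ctrl (SD, n = 4 each), and the groups overlapped. With lists of equal length both means were 15.7.

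A further 48 markers of the same cell types, listed by name, were counted in the same way. Of these, 14 (29.2%) had a gene-end peak in some library, 34 had none and 4 (8.33%) had one in all 8. The 4 were Glul, the glutamine synthetase gene of astrocytes, Aldoc, an astrocyte aldolase whose peak is shared with the neighbouring gene Pigs, Cnp, a gene of myelinating cells, and Kdr, an endothelial growth factor receptor gene. By cell type, 1 of 14 neuron, 4 of 10 astrocyte, 3 of 12 oligodendrocyte lineage and 6 of 12 vascular further markers had one in some library. Neuron markers were thus lowest and vascular markers highest here, the reverse of the main panel, so neither list ranks the cell types. Ndrg2, an astrocyte gene, had a gene-end peak in 4 FGR and 0 Ctrl libraries, and Flt1, another endothelial growth factor receptor gene, in 4 FGR libraries and 1 Ctrl library. By limma 11 of the 48 loci were tested and 0 called, with 2 higher and 1 lower at an unadjusted p below 0.05 and a median log2 difference of 0.02.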

How the data were processed

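Peak lists of 8 ATAC-seq libraries (4 FGR, 4 Ctrl) were used as the authors deposited them. The genome build was mm10 and the tools listed were MACS2 2.2.7.1, DiffBind 3.12.0, Bowtie2 2.4.5, Trim Galore 0.6.5 and SAMtools 1.3.1, per the submitters' processing notes. The sources used here do not give read shifting, duplicate removal or filters. The deposited score is a display value and was not used. The deposited fold, a ratio of summit pileup to local background, and the deposited −log10 q and −log10 p values are the authors' and served to rank, filter or describe peaks within a list. Reads at the summit were recovered from fold and −log10 p as the whole number that fits a Poisson tail within 0.001 for 100% of peaks. Read totals are not known, and intervals from counting error were not given.

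Gene spans came from a RefSeq table and sequences from the RefSeq promoter table, both of assembly GRCm38.p6, whose coordinates are those of mm10. The table of spans gives no strand, and 10 markers without a promoter entry are described by their lower and upper ends. No genome sequence was used here. The members and lists were chosen with earlier results of these data known. Genes were described singly when they had a gene-end peak in any library, differed by 2 or more libraries, had an unadjusted limma p below 0.05 or held most peaks of their type. Other regions described by position were chosen after their values were seen.

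The test of loci was limma (version 3.58.1, R 4.3.3) with a mean-variance trend, Benjamini-Hochberg adjustment over 8037 loci and a threshold of 0.05. Presence of a peak was compared with Fisher's exact test, two-sided. Regions were merged at an overlap of 1 bp. The remaining work was done with matplotlib 3.10.9, scipy 1.17.1, pandas 2.3.3 and numpy 2.4.6 under Python 3.11.15. On simulated data with 200 of 8037 loci changed, limma called 0 of 200 at a fold of 2 and 176 of 200 (88%) at a fold of 4, with 5 false calls, and the pileup was recovered for 3000 of 3000 peaks. The simulated locus counts were Poisson draws scaled to list length, without added spread between libraries, so detection in the real lists can differ. Alternatives were other windows, flanks, pseudocounts and filters, lists cut to the shortest (10862 peaks), a replicate block, pairs averaged, and libraries left out.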

Additional observations from a re-analysis of the deposited data

Results flagged for a closer look

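In groups of 4 libraries, a value was marked when its gap to the nearest other exceeded Dixon's critical share of the group's range. Of 33 groups of values tested, 3 were marked. All 3 are counts of marker genes with a gene-end peak in which 1 library has 1 gene and the others 0. Such a group is always marked, so the 5% that chance marks among continuous values does not apply, and the marks show no more than which library holds the single peak. The astrocyte count was 1 in FGR 4 (Aldh1l1) and 0 in the other FGR libraries. It was 1 in Ctrl 3 (Slc1a2) and 0 in the other Ctrl libraries. The vascular count was 1 in Ctrl 1 (Cdh5) and 0 in the other Ctrl libraries. Ctrl 1 has the widest peaks of the 8 libraries, a median of 566 bp, and whether width bears on the Cdh5 peak was not tested.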

How the results depend on the processing

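Lists cut to equal length turned the difference in markers with a gene-end peak, FGR minus Ctrl, to −0.5 genes for neurons (1.5 with all peaks) and to −1.25 for all markers (0.75 with all peaks). The number of markers with a gene-end peak in some library was then 3 (43.3% of all genes), 6 at a −log10 q of at least 5 (49.9%) and 15 with a window of 2 kb (62.5%), against 10 (57.8%). Markers with a gene-end peak in 4 FGR and 0 Ctrl libraries numbered 1, Bsn, and 0 with windows of 500 bp and 2 kb, at a −log10 q of at least 5 and at equal length. In the window of 2 kb Bsn reached the end of Apeh and 1 marker, Bsn, was called in all 8 libraries. Replicates 3 and 4 alone, 2 libraries against 2, gave 1 marker, Myrf, with the reverse pattern, which 0.731% of all genes then had. Regions called in 4 FGR and 0 Ctrl libraries numbered 0 at equal length, against 2, and regions in all 8 libraries 8 at equal length and 8 at a −log10 q of at least 5, against 13. The astrocyte difference per 10000 peaks, 0.340, was 1.35 in replicates 3 and 4 and −0.674 in replicates 1 and 2. Replicates 1 and 2 of both groups form deposit set 1, and replicates 3 and 4 form deposit set 2. Whether these sets were handled as separate batches is not stated. Replicates 3 and 4 alone were a planned setting, while replicates 1 and 2 alone were added after seeing the data. The vascular difference was 0.0291 without the flank.

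By limma, 1 marker locus (Myrf) was called instead of 0 with a pseudocount of 1 (−1.09) and with the replicate block (−1.16, adjusted p = 0.00889). Same-numbered libraries deviated with correlations between −0.0176 and 0.0977, so the replicate numbers are not taken as pairs. Over all loci 1 was called, 141 with the replicate block, 57 with a pseudocount of 1, 20 at equal length, 11 without division by list length, 9 in replicates 1 and 2, 3 with a mean of at least 1 peak, and 0 without the flank, with pairs averaged, without Ctrl 1 and Ctrl 2 and in replicates 3 and 4. Leaving out 1 library gave 0 to 15 calls, the 15 without Ctrl 3. The cause of these shifts was not tested.

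Log2 differences near 0 changed sign. Bsn (0.022) was −0.023 with a pseudocount of 1, −0.043 at a −log10 q of at least 5, −0.30 in replicates 1 and 2 and −0.072 to 0.19 without 1 library. Slc1a3 (0.042) was −0.015 with a pseudocount of 1, −0.19 without the flank, −0.16 in replicates 1 and 2 and −0.074 to 0.19 without 1 library. Pdgfrb (0.30) was −0.39 without Ctrl 1 and Ctrl 2, −0.25 in replicates 3 and 4 and −0.10 to 0.60 without 1 library. Slc17a7 (−0.47) was 0.12 without division by list length. Rbfox3 and Mbp stayed positive and Myrf negative wherever they could be tested. A locus difference of a fold of 2 was not detectable by limma in simulated Poisson counts without added spread between libraries. A peak missing from a list does not show closed DNA.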

Other observations

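Short motifs were counted in the 25 RefSeq start windows of the markers, on both strands, as a description. The GC box GGGCGG was found in 12 windows, 48% against 46.2% of all coding windows. The E-box CAGCTG was found in 5 (20% against 15.6%) and TATAAA in 4 (16% against 12.6%). A myeloid ETS motif, GAGGAAGT, was found in 0 of 25, against 3.13% of all coding windows. None of the 4 strings of letters is contained in another.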
